A study of Homo sapiens with 14 samples.

Results

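The comparison described here sets CAOV3 cells against A549 cells by the methylation of single adenosines in messenger RNA. CAOV3 is an established line from an ovarian carcinoma and A549 one from a lung carcinoma, and both had been kept with the solvent DMSO for 24 h. Each line gave 2 libraries of polyadenylated RNA, 4 of the 14 libraries in the series. The other libraries came from 4 more carcinoma lines with DMSO (COV644, EFO21, OE21 and SKOV3) and from CAOV3 with 1 uM STM3675, and they were used only to place the values of this pair. The members were all adenosines with at least 20 informative reads in each of the 4 libraries, which kept 163387 of 407343 listed sites (40.1%) in 10353 of 13734 genes. Of these, 68226 sites in 9403 genes had the motif DRACH (D is A, G or T, R is A or G and H is A, C or T). Among the 243956 sites left out, 82865 fell under 20 reads in CAOV3 only, 41532 in A549 only and 119559 in both lines. A total of 2031 sites in 822 genes had under 20 reads in every library of the other 4 lines and could thus be compared in this pair only.

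N6-methyladenosine (m6A) is the most common internal mark of messenger RNA. METTL3, held by METTL14 and helped by WTAP, VIRMA and other partners, writes it at DRACH motifs, mostly in last exons and in long internal exons, since exon junction complexes keep the writer away from short exons. FTO and ALKBH5 can remove it, and readers such as the YTHDF proteins bind it and speed the decay of the transcript. GLORI measures it base by base: glyoxal and nitrite deaminate unmethylated adenosines, which are then read as G, while methylated ones are still read as A. A site's level is given here as the share of A among its A and G reads, in percent, and an adenosine that escapes the chemistry is read as methylated.

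Reads at the listed sites summed to 19014817 and 18729571 in CAOV3, and to 25492907 and 22810381 in A549, with a median of 52 reads per tested site and library. The levels of DRACH sites correlated between replicates with r = 0.941 in CAOV3 and 0.955 in A549, across 68226 sites that are not independent of each other. Replicates differed by more than counting noise, by a factor of 1.92 in CAOV3 and 1.57 in A549 (Pearson dispersion over sites). The labels do not say whether replicates came from separate cultures, so p-values measure the spread between these libraries, which may be technical.

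DRACH sites read as more methylated in both CAOV3 libraries than in both A549 libraries, and the unconverted background of the lines differed by under 1 point. The mean level of the 68226 DRACH sites was 45.0% and 46.2% in the CAOV3 libraries, against 41.1% and 41.1% in the A549 libraries. Both CAOV3 libraries lay above both A549 libraries, and the means of 45.6% ± 0.80 in CAOV3 and 41.1% ± 0.059 in A549 (SD, n = 2 each) differed by 4.49 points. An exact two-sided permutation test gave p = 0.333, the smallest value that 6 splits of 2 against 2 libraries allow. Background was read at 51701 sites without a DRACH motif that reached 20 reads and 25% in none of the 4 libraries. Their median level was 8.33% and 8.70% in CAOV3, against 8.93% and 8.82% in A549, so the CAOV3 libraries were the lower ones by 0.36 points (exact p = 0.333). These sites were chosen to lie under 25% in all 4 libraries, which limits how far the lines can differ there. The order also depends on the choice of sites. Over all 95161 sites without the motif the mean was 13.6% and 13.9% in CAOV3, against 12.7% and 12.9% in A549. There CAOV3 was higher by 0.94 points. The mean DRACH level was also corrected by subtracting each library's median background and dividing by the share left above that background. It was then 40.5% ± 0.71 in CAOV3 and 35.4% ± 0.012 in A549 (SD, n = 2 each), a difference of 5.17 points. The correction rests on the background sites so chosen. It was not run with the mean of all sites without the motif, where CAOV3 was the higher line.

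The listed sites had to reach 25% in at least 1 library of the series, so a site can owe its place to the pair itself. The 57907 DRACH sites that reached it in another line do not, and there the level was 49.1% and 50.2% in CAOV3, against 45.2% and 45.0% in A549. The lines differed by 4.53 points at these sites and the libraries did not overlap. The 10319 DRACH sites that reached it only in CAOV3 or A549, 639 of them without coverage in any other line, were chosen by the pair's own values, so their means of 22.9% in CAOV3 and 18.6% in A549 are a description.

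**Figure D1:**
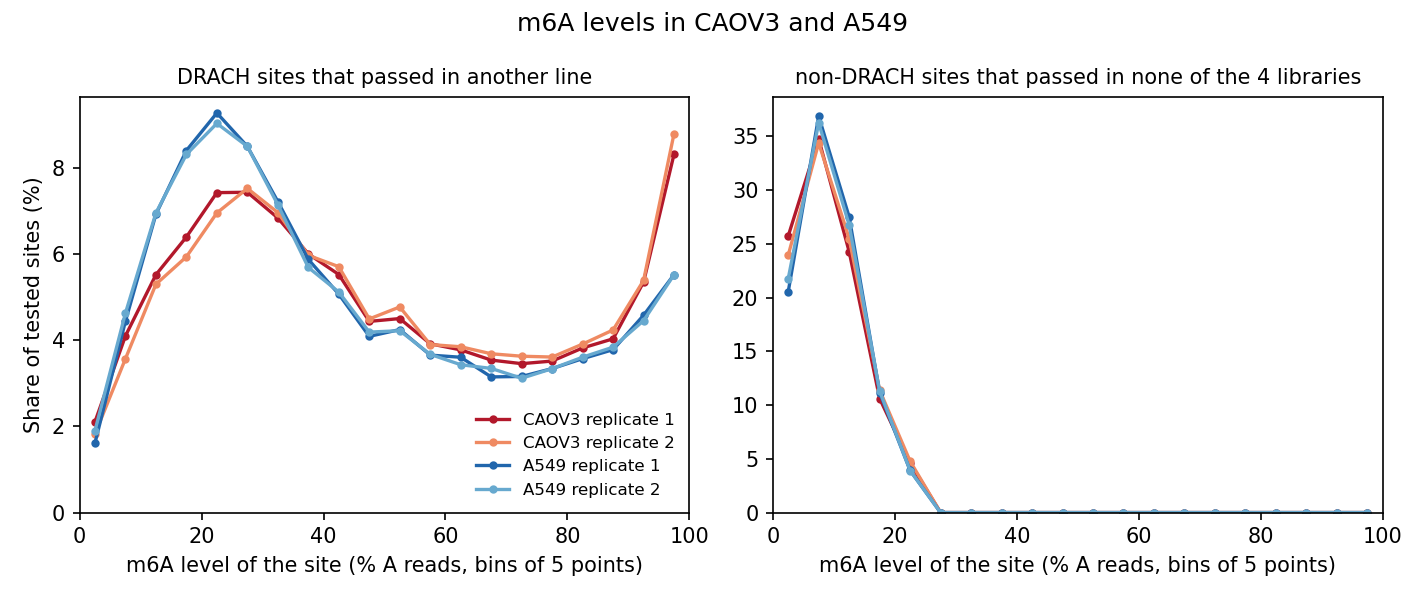
Distribution of the level of single sites in each of the 4 libraries, for DRACH sites that passed the table's limits in another line and for background sites without the motif; the x axis is the level in percent and the y axis the share of sites. At DRACH sites the CAOV3 curves hold 25.0% and 25.9% of sites at a level of 75% or more, against 20.8% and 20.8% for the A549 curves. The background curves lie close together, at sites chosen to be under 25% in all 4 libraries.

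The difference was spread over many sites. At 72.9% of DRACH sites the mean of CAOV3 was above that of A549, the median difference was 4.07 points, and the quartiles were -0.41 and 9.38 points. Both CAOV3 libraries lay above both A549 libraries at 40.9% of DRACH sites and below them at 8.68%. Sites without the motif were near balance, with 18.9% above and 15.7% below. All these shares include sites that passed the table's limits only in CAOV3 or A549, 10319 of them DRACH sites. The shares are thus a description.

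Single sites were tested with a quasi-binomial model of the A and G reads, with the dispersion moderated over sites by limma and Benjamini-Hochberg adjustment over all 163387 sites at 0.05. It called 2880 sites higher in CAOV3 (1.76% of those tested) and 216 lower (0.132%). Of the DRACH sites, 2580 were higher (3.78%) and 150 lower (0.22%), and of the others 300 were higher (0.315%) and 66 lower (0.0694%). Of all tested sites, 44428 passed the table's limits only in CAOV3 or A549 and can owe their place to the pair. Fitted without them, the sites that passed in another line gave 4757 higher and 347 lower, at a lower mean dispersion (1.41, against 1.82 in the main fit). Of the 3096 main calls, 2679 were at sites that passed in another line, and the rest are a description. These site calls rest on a spread pooled over sites, because 2 libraries a line tell little about the spread of 1 site: limma on arcsine levels called 0 sites at an adjusted p under 0.05, with 12544 higher and 2993 lower at an unadjusted p under 0.05. The model itself had 15777 higher and 3806 lower at an unadjusted p under 0.05. With any 1 library left out, the model called 101 to 236 DRACH sites higher and 14 to 31 lower. Calls also followed depth: 0.330% of DRACH sites with 20 to 29 reads in the shallowest library were called higher, and 29% of those with 300 or more.

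The size of the difference depended on how methylated a site was elsewhere. At DRACH sites whose mean in the other 4 lines was under 10%, CAOV3 averaged 13.5% and A549 10.8%. In points it was largest at sites between 50% and 75%, with 67.7% ± 1.1 in CAOV3 and 60.8% ± 0.14 in A549 (SD, n = 2 each), a difference of 6.96 points. At sites of 90% or more the levels were 96.0% in CAOV3 and 94.1% in A549. On the log odds scale, which does not compress near 100%, the order was another: the difference was 0.42 at sites of 90% or more, 0.30 between 50% and 75% and 0.25 under 10%. These classes were set by libraries outside the comparison, and in each of the 6 classes CAOV3 was the higher line.

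By position, last exons held 42513 of the tested DRACH sites and averaged 49.2% in CAOV3 against 44.1% in A549, with 2065 sites called higher (4.86%, beside 3.78% of all DRACH sites) and 100 lower (0.235%, beside 0.22%). Internal exons averaged 36.9% in CAOV3 and 33.1% in A549. The 2026 sites of first exons averaged 38.1% in CAOV3 and 36.2% in A549, with 15 sites called higher (0.74%) and 8 lower (0.395%). Among internal exons, those of 100 nt or less stood at 14.9% in CAOV3 and 13.8% in A549, those of over 200 and up to 400 nt at 31.7% and 26.9%, and those over 1000 nt at 54.0% and 48.8%, with CAOV3 given before A549 in each pair. Levels were thus low in short internal exons and high in long ones in both lines. The point difference was 1.14, 4.76 and 5.20 in these 3 classes. It was 2.59 at 101 to 200 nt and 4.07 at 401 to 1000 nt, so it did not rise steadily with width. On the log odds scale it was largest at 201 to 400 nt, with 0.23 against 0.21 over 1000 nt. Of the 18 motifs, GGACT had the highest level, 59.3% in CAOV3 and 54.5% in A549. TGACT differed by 5.22 points and TGACC by 2.03, with 46.0% and 19.1% in CAOV3 against 40.8% and 17.1% in A549.

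**Figure D2:**
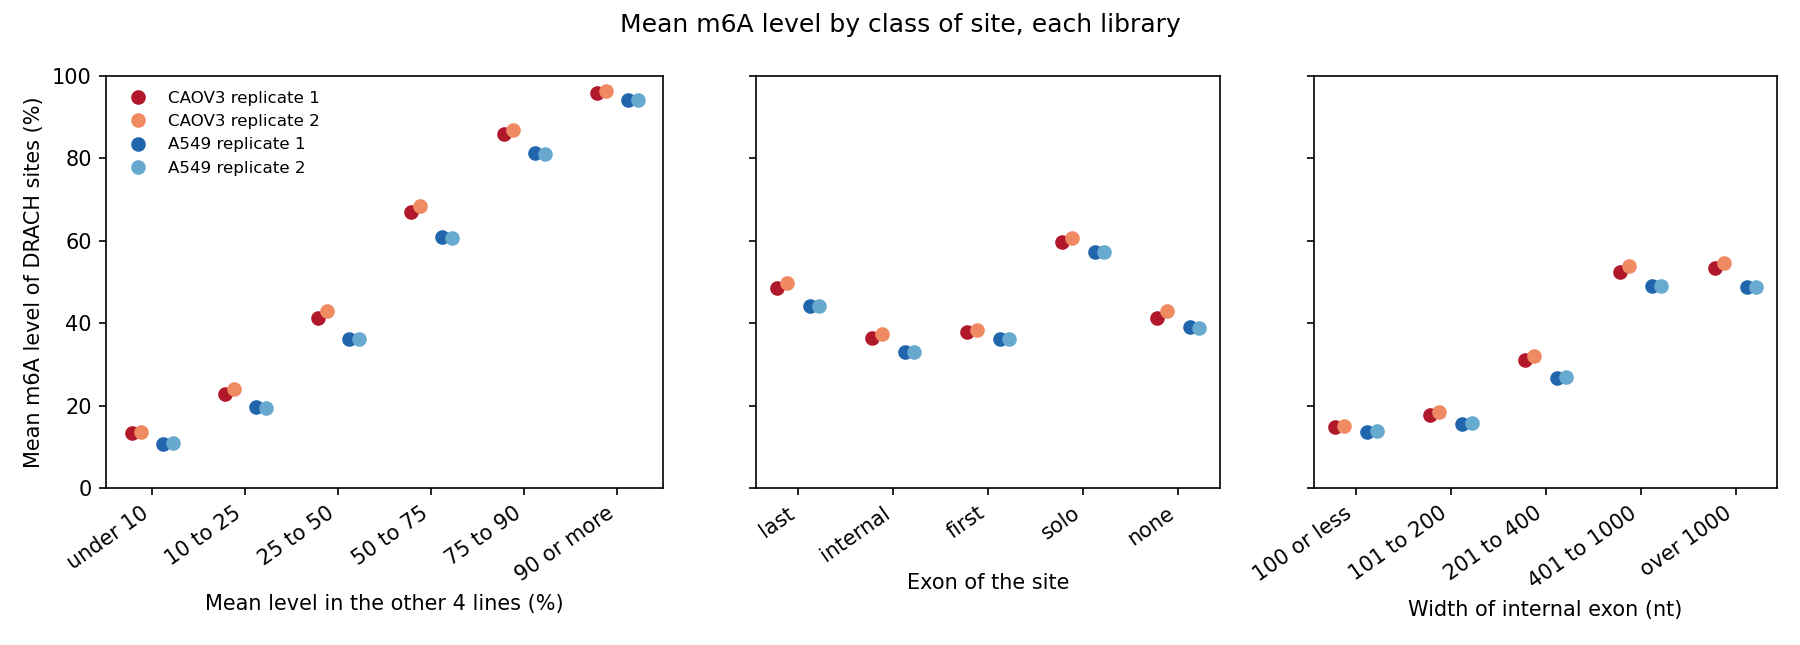
Mean level of DRACH sites in percent by level class, exon class and internal exon width, with 1 point for each library of CAOV3 and A549 (solo is the table's own exon label, and none marks sites without a gene). The points of CAOV3 lie above those of A549 in each class shown, by 6.96 points where the other lines average 50% to 75% and by 1.14 points in internal exons of 100 nt or less.

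The called sites were also read in the other lines. These levels are raw, and the other lines differ from the pair in unconverted background, which was not corrected for here. The part of that background in the distances below was not tested. At the 2313 DRACH sites called higher that all other lines covered, the mean was 59.7% in CAOV3 and 44.3% in A549, with 50.8% in COV644, 47.9% in EFO21, 43.6% in OE21 and 47.0% in SKOV3. The mean of the other lines was nearer to A549 at 1862 of them (80.5%), against 63.9% of all 38621 DRACH sites so covered. CAOV3 was above every other line at 1891 of these sites (81.8%, against 45.4% of all covered DRACH sites) and A549 below every other line at 621 (26.8%, against 14.3%). At the 128 covered sites called lower, the order turned: 35.9% in CAOV3, 53.9% in A549 and 42.2% in the other lines, with CAOV3 below every other line at 31 sites (24.2%, against 4.91% of all covered DRACH sites) and A549 above every other line at 79 (61.7%, against 19.6%). The calls used the CAOV3 and A549 values, which fixes part of these orders, so the counts are a description. In CAOV3 with STM3675, the 2310 sites called higher that had coverage there averaged 9.27%. The sites called lower averaged 8.47% there and all such covered DRACH sites 10.6%.

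The called sites were spread thinly over genes. The 2580 higher sites lay in 1516 genes, 984 of which had 1 such site and 213 of which had 3 or more. RNF213, a giant ubiquitin ligase, had 14 of its 99 tested DRACH sites called higher, and AHNAK, a giant scaffold protein, had 13 of 151. USP22, the deubiquitinase of the SAGA complex, had 10 of 18, and over all its DRACH sites the level was 52.0% and 54.5% in CAOV3, against 32.2% and 32.2% in A549. CD59, which shields cells from complement, had 9 of 11, with 43.9% and 45.0% in CAOV3 against 29% and 29% in A549. Neither gene's libraries overlapped, and the adjusted p of the gene-level quasi-binomial test was 2.24e-18 for USP22 and 4.63e-20 for CD59. Both genes were named for their number of called sites, and the gene test sums the reads of the same sites. Their gene values are thus a description and add no further evidence.

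Among sites with 50 or more reads in each library, the strongest evidence for a higher site came from PSMD2, a subunit of the proteasome's regulatory particle. Its GAACT site in the last exon, exon 21, at chr3:184308911 (GRCh38, plus strand) stood at 68.0% and 69.1% in CAOV3, against 28.8% and 28.2% in A549, with 1484 to 2886 reads per library. The libraries of the lines did not overlap, and the adjusted p was 7.69e-150 (quasi-binomial test). In the other lines the site ranged from 37.1% in a COV644 library to 70.3% in an OE21 library, all above A549.

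MRFAP1, which binds MORF4-family chromatin proteins, had a GAACT site in its last exon at chr4:6642555 (plus strand) with 53.9% and 56.2% in CAOV3, against 15.8% and 16.9% in A549 (adjusted p = 3.71e-64, quasi-binomial test). DLG5, a scaffold of cell polarity, had the largest difference of the 10 higher sites, at GAACA in last exon 32 (chr10:77792340, minus strand): 91.1% and 86.4% in CAOV3, against 38.5% and 35.2% in A549 (adjusted p = 2.84e-17, quasi-binomial test). Both sites were clear of overlap, and the other lines ranged from 35.5% to 62.1% at the DLG5 site, all below CAOV3. BIRC6, a giant ubiquitin ligase that inhibits apoptosis, had its site 1 nt from the start of internal exon 30 (chr2:32469396, plus strand), with 53.2% and 48.8% in CAOV3 and 13.3% and 15.8% in A549. No library of another line was above 25.4% there.

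The other higher sites were in PLEC, a cytolinker (79.6% and 70.9% in CAOV3, against 36.5% and 39.0% in A549), SNX1, a retromer-associated sorting nexin (70.4% and 70.5%, against 33.3% and 32.8%), PIMREG, a mitotic gene (55.0% and 55.1%, against 13.2% and 18.7%), EHD4, an endocytic ATPase, CYP4F11, a cytochrome P450, and ETV5, an ETS factor downstream of MAPK signalling. These differed by 36.3 to 41.5 points.

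The largest lower site was in LSG1, a GTPase of ribosome assembly, at GAACC in last exon 14 (chr3:194641994, minus strand). It read 17.4% and 23.1% in CAOV3, against 98.6% and 100% in A549, with 66 to 91 reads per library (adjusted p = 4.56e-26, quasi-binomial test). The lines did not overlap, and OE21 was as low as CAOV3, with 18.6% and 17.1%, while the other 3 lines lay between 72.3% and 100%. TK1, the thymidine kinase of S phase, fell at GAACT in last exon 7 (chr17:78174629, minus strand), with 40.7% and 37.8% in CAOV3 against 77.5% and 74.2% in A549 (adjusted p = 5.64e-57). NUDCD3, a cochaperone that stabilises dynein, fell at GGACT in last exon 6 (chr7:44385608, minus strand), with 45.1% and 49.8% in CAOV3 against 82.5% and 81.7% in A549 (adjusted p = 1.35e-28, quasi-binomial test, as for TK1). At PINK1, the kinase of mitophagy, A549 was the line apart: the site at chr1:20650882 (plus strand) had 24.2% and 22.6% in CAOV3 and 59.2% and 58.3% in A549, with 15.7% to 32.5% in the other lines.

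Only sites with a gene name were named in this way. Of the sites without one, a pair of neighbouring GGACT sites on the plus strand differed by more than any named lower site but that of LSG1: chr17:40834760 had 26.4% and 29.3% in CAOV3 against 91.8% and 90.9% in A549 (adjusted p = 5.69e-121), and chr17:40834853 had 41.9% and 43.3% against 88.5% and 89.9% (adjusted p = 1.70e-60, quasi-binomial test).

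The other lower sites, by 34.1 to 43.6 points, were in TRAPPC5, a vesicle tethering subunit, TRMT61B, a mitochondrial tRNA methyltransferase, ZSCAN29, a zinc finger protein, MRPL34, a mitochondrial ribosomal protein, SLC35A4, a member of a family of nucleotide sugar transporters, and PIGO, an enzyme of GPI anchor synthesis. Those of TRMT61B and ZSCAN29 were in first exons. Of these 20 sites, 6 (DLG5, PSMD2, MRFAP1, LSG1, TK1 and NUDCD3) were called with any 1 library left out and 11 in none of the 4 fits that each left out 1 library. Without A549 replicate 1, the adjusted p was 0.0808 for BIRC6, 0.0706 for PLEC and 0.131 for PINK1, and PINK1 was also lost without A549 replicate 2, at 0.122 (quasi-binomial test). The directions held in each of these fits.

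At 4 called DRACH sites the lower line was under 5% and the higher line at 40% or more, in both libraries of each. UBL4A, a ubiquitin-like protein of the tail-anchored protein insertion pathway, had a GGACT site in its last exon (chrX:154484549, minus strand) with 44 of 45 and 43 of 43 reads methylated in CAOV3, against 1 of 46 and 0 of 50 in A549. The count of 0 allows up to 6% (3 reads, counting error only), and the covered libraries of the other lines had 0% to 4.08%. With STM3675 the site read 10.2% and 13.5% in CAOV3. KIRREL1, a nephrin-like adhesion protein, had a GGACT site (chr1:158096252, plus strand) with 63.8% and 66.7% in CAOV3, against 0 of 212 reads (up to 1.42%) and 1.01% in A549. RPL22L1, a paralogue of a ribosomal protein, had a GAACT site with 48.6% and 48.6% in CAOV3, against 3.10% and 0.787% in A549. TRIO, a guanine nucleotide exchange factor, went the other way, with 0 of 23 reads (up to 13%) and 4% in CAOV3, against 54.4% and 41.8% in A549. A genomic G at such a site would also be read as unmethylated, and this was not tested. The sites of UBL4A and RPL22L1 reached the table's 25% only in CAOV3, where they are high, so they had to differ and their values are a description. TRIO was not called with any 1 library left out (adjusted p up to 0.385, quasi-binomial test), while KIRREL1, which reached 25% in EFO21 too, was called in each case.

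**Figure D3:**
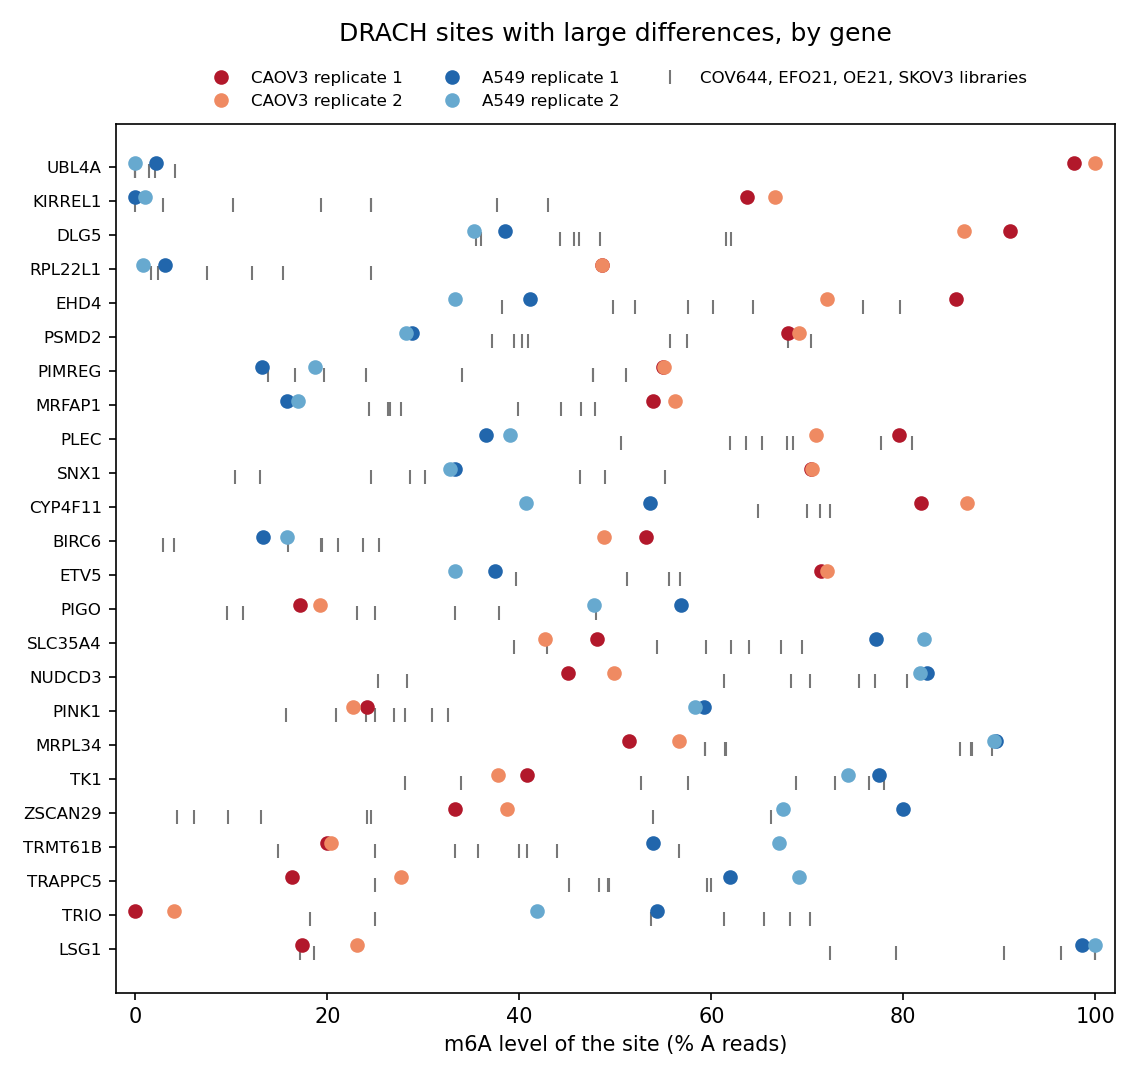
Level in percent, by gene, of the 10 higher and 10 lower called DRACH sites with the largest differences among sites with a gene name and 5% or more in the lower line. Also shown are the 4 called DRACH sites under 5% in both libraries of 1 line and at 40% or more in both of the other. Each library of CAOV3 and A549 has 1 coloured point, and grey ticks mark libraries of the other lines. CAOV3 and A549 do not overlap at any of these sites, and at LSG1 the 2 OE21 libraries stand with CAOV3 at 18.6% and 17.1%.

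Of the sites without coverage in other lines, 4 were named for the size of their difference. MEIS3, a homeobox factor, had an AGACA site at the first base of internal exon 3 (chr19:47416963, minus strand) with 77.8% and 92.9% in CAOV3, against 11.1% and 15.7% in A549. It had as few as 27 reads in a library. HEYL, a Notch target, had 64.1% and 84.4% in CAOV3 against 27.3% and 34.2% in A549. HUNK, a kinase, had 39.5% and 70.0% against 8.70% and 19.2%, and HOXC9, a homeobox factor, 71.8% and 70.0% against 40.4% and 36.5%. In the site fit MEIS3 and HEYL passed (adjusted p = 7.29e-12 and 0.0238), while HUNK and HOXC9 did not (0.106 and 0.0763, quasi-binomial test). These sites could reach the table's 25% only in CAOV3 or A549. Those of MEIS3 and HUNK did so only in CAOV3, the line where they are high. The values and the calls are thus a description.

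Over whole genes, the A and G reads of all tested DRACH sites were summed and tested in the same way. Of 9448 genes, 2560 were higher in CAOV3 (27.1%) and 85 lower (0.9%), and the median difference was 4.16 points. Limma on arcsine levels called 0 genes, with 2958 higher and 153 lower at an unadjusted p under 0.05. Without A549 replicate 1 the counts were 1233 higher and 30 lower, and without A549 replicate 2 they were 1290 and 30. Without CAOV3 replicate 2, 204 genes were lower. Since most genes moved one way, a second test asked which differed from the median gene, whose log odds of methylation were higher by 0.19 in CAOV3 (natural log). It called 501 genes above that shift (5.3%) and 390 below it (4.13%).

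Among genes with 3 or more sites, PSMD2 read 53.8% and 55.7% in CAOV3 against 27.4% and 26.0% in A549 (adjusted p = 9.23e-21, quasi-binomial test), but the site described above holds 70.9% of its reads. Without that site the gene read 22.7% and 21.6% in CAOV3 and 24.0% and 19.6% in A549, with overlap. TRAM1L1, a relative of the translocon protein TRAM1, had the largest rise, with 67.9% and 69.6% in CAOV3 and 33.1% and 43.7% in A549. STX7, an endosomal syntaxin, had 43.6% and 49.6%, against 19.0% and 21.6%. SNX18, a sorting nexin, and DLX1, a homeobox factor, were higher by 23.8 and 23.7 points, but SNX18 was lost without A549 replicate 1 (adjusted p = 0.119) and DLX1 without either A549 replicate (0.2 and 0.0692, quasi-binomial test).

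The genes of 3 or more sites that fell most were PHYKPL, an enzyme of hydroxylysine breakdown (27.3% and 28.2% in CAOV3, against 53.7% and 53.6% in A549), FYCO1, an adaptor of autophagosome transport (33.7% and 21.1%, against 55.7% and 46.0%), and TK1 (28.4% and 26.8%, against 50.4% and 48.9%). CD151, a tetraspanin, had 15.8% and 19.7% in CAOV3 against 36.7% and 36.6% in A549, and NICN1, a tubulin-associated protein, had 42.0% and 45.0% against 60.7% and 63.5%. None of these libraries overlapped, and FYCO1 was lost without A549 replicate 1 (adjusted p = 0.171, quasi-binomial test). All 5 were also below the median shift, while of the 5 genes that rose DLX1 was not above it (adjusted p = 0.0762, quasi-binomial test). CAOV3 was the lower line at each of the 7 sites of TK1 (3 called), the 3 of PHYKPL and the 4 of NICN1 (1 called in each). In FYCO1 it was the higher line at 2 of 3 sites and in CD151 at 1 of 3, with 1 site called lower in each.

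**Figure D4:**
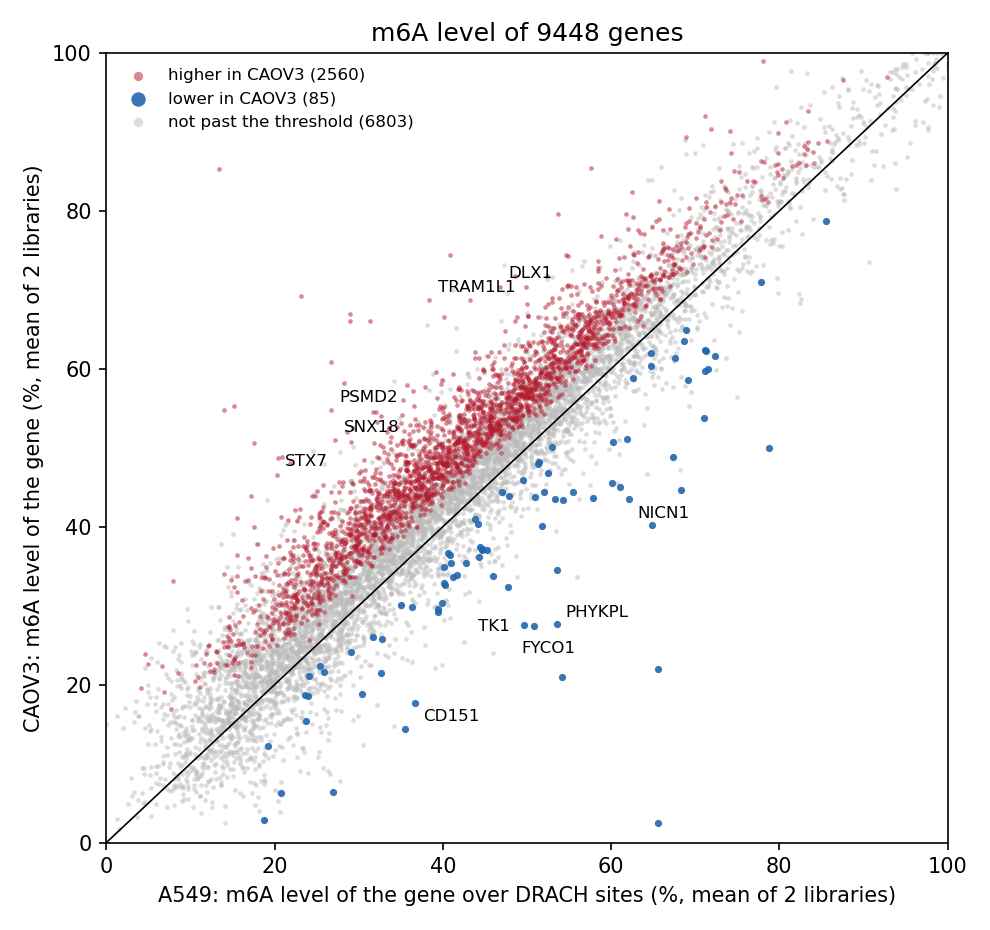
Level of each gene over its tested DRACH sites in percent, with the mean of CAOV3 on the y axis and that of A549 on the x axis, called genes coloured and the called genes of 3 or more sites with the largest differences named. Most of the cloud lies above the diagonal, with 2560 called genes above it and 85 below.

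Some genes had sites that went both ways. In 21 genes at least 1 DRACH site was called higher and 1 lower. DLG5 had 2 higher and 3 lower of 30 sites, and as a gene it read 39.0% and 35.7% in CAOV3 against 38.5% and 39.7% in A549, with no call (adjusted p = 0.289, quasi-binomial test). LSG1, whose site above was the largest fall, also had 4 sites called higher, and the gene as a whole rose: 49.3% and 54.5% in CAOV3, against 45.3% and 45.6% in A549 (adjusted p = 0.0101, quasi-binomial test). Between DRACH sites of the same exon with 50 or more reads, the differences correlated with r between 0.280 and 0.328 up to 500 nt apart and 0.167 beyond, given as a description since neighbouring sites share reads and libraries.

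Gene lists were read by counts beside those of all genes, where 27.1% rose. Relative to the median shift of genes far fewer members passed, and those counts are given as well. Of the 11 measured members of a list of the methyltransferase complex and other RNA methyltransferases (METTL16, ZCCHC4 and PCIF1), 5 rose and 0 fell, with a median difference of 7.95 points against 4.16 over all genes. Relative to the median shift 1 of them, VIRMA, was higher (5.3% of all genes) and 0 lower. VIRMA, its scaffold, had 54.0% and 56.9% in CAOV3 against 47.0% and 46.7% in A549 (adjusted p = 6.51e-08, quasi-binomial test). METTL14, the partner that holds the RNA, had 62.7% and 58.6% against 54.1% and 51.3%, WTAP, which recruits the complex, 47.6% and 53.9% against 41.2% and 41.8%, and CBLL1, a ubiquitin ligase of the complex, 40.7% and 41.9% against 33.5% and 28.0%. All 4 passed, but METTL14 and CBLL1 were lost without A549 replicate 2 (adjusted p = 0.152 and 0.0523) and WTAP without A549 replicate 1 (0.0652, quasi-binomial test). METTL3, the catalytic subunit, had 37.7% and 45.3% in CAOV3 and 39.7% and 38.4% in A549 and did not pass (adjusted p = 0.654, quasi-binomial test).

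Of 15 demethylases and readers, 8 rose and 0 fell, and relative to the median shift 1, YTHDF1, was higher and 0 lower. YTHDF1, a cytoplasmic reader, had 65.3% and 62.6% in CAOV3 against 56.9% and 55.5% in A549, and YTHDF2, the reader tied to decay, 78.5% and 80.6% against 74.3% and 73.2%. ELAVL1, an RNA-stabilising protein, rose by 11.3 points. ALKBH5 had 40.6% and 47.2% against 35.9% and 34.6% and was lost without A549 replicate 2 (adjusted p = 0.0657), and YTHDF3 held its call in 1 of the 4 fits with a library left out (quasi-binomial test). The exon junction complex list had 7 of 15 up and 0 down, with a median of 4.61 points, and 0 either way relative to the shift; RBM8A, a core subunit, rose by 7.32 points and was lost in 3 of the 4 fits.

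The Hippo and TGF-beta list had 16 of 34 genes up and 1 down, with a median of 4.78 points, and relative to the median shift 4 up and 4 down. TGFBR1, a TGF-beta receptor, had 56.6% and 67.8% in CAOV3 against 44.1% and 43.6% in A549 (adjusted p = 2.42e-06, quasi-binomial test). ID3, an inhibitor of helix-loop-helix factors, fell, with 47.3% and 48.6% in CAOV3 against 50.9% and 51.8% in A549, and was lost without A549 replicate 2 (adjusted p = 0.0572, quasi-binomial test). ID2, its relative, read 73.4% and 75.5% against 74.1% and 74.7%.

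Of the RAS and MAPK feedback genes 10 of 23 rose and 0 fell, among them SPRED1, an inhibitor of RAS signalling, by 11 points. Relative to the median shift 0 were higher and 2 lower, and SPRED1 did not pass (adjusted p = 0.0665, quasi-binomial test). Of 12 receptor tyrosine kinases 5 rose and 0 fell, or 1 and 1 relative to the shift. EGFR, the epidermal growth factor receptor, had 61.7% and 62.1% in CAOV3 against 58.1% and 56.5% in A549 (adjusted p = 6.09e-06, quasi-binomial test). Relative to the shift of the median gene its log odds differed by -0.0071 (adjusted p = 0.925, quasi-binomial test). INSR, the insulin receptor, rose by 16.6 points on 3 sites, and its call held only without CAOV3 replicate 2.

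Cell cycle genes counted 9 of 30 up and 0 down, and TOP2A, the topoisomerase of mitotic chromosomes, had 56.8% and 56.2% in CAOV3 against 41.2% and 41.4% in A549 (adjusted p = 4.88e-14, quasi-binomial test). MYC had 76.2% and 73.8% against 73.4% and 73.8%, with overlap and no call (adjusted p = 0.598, quasi-binomial test). Of apoptosis genes 9 of 20 rose, with BIRC2, an inhibitor of apoptosis, up by 10.1 points. Of the p53 pathway 6 of 22 rose, led by RRM2B, a ribonucleotide reductase subunit, by 18.6 points, while CDKN1A, the cell cycle inhibitor p21, did not pass (30.1% and 32.6% against 27.6% and 28.3%). None of these 3 lists had a gene that fell; relative to the median shift the counts were 3 up and 1 down for cell cycle, 3 and 0 for apoptosis and 3 and 0 for the p53 pathway.

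Of 23 NRF2 target genes, which answer to oxidative stress, 7 rose and 1 fell, with a median of 1.39 points beside the 4.16 of all genes. GSR, glutathione reductase, rose by 10.9 points (adjusted p = 0.048, quasi-binomial test) and its call held only without CAOV3 replicate 1. PGD, an enzyme of the pentose phosphate pathway, had 33.9% and 39.5% in CAOV3 against 40.7% and 40.5% in A549 and fell, a call kept only without CAOV3 replicate 2 and turned in direction by limma. NQO1 read 28.1% and 32.4% against 30.0% and 27.7%. Epithelial junction and keratin genes had 9 of 23 up and 0 down, with OCLN, a tight junction protein, up by 12.4 points. Of 13 mesenchymal genes 1 rose, TGFBI, a matrix protein, by 6.84 points, lost in 3 of the 4 fits with a library left out. Relative to the median shift, 1 NRF2 target was higher and 3 lower, 1 epithelial gene higher and 0 lower, and 0 mesenchymal genes higher and 3 lower.

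Of the remaining lists, interferon and double-stranded RNA sensing had 5 of 23 up, with JAK1, a cytokine receptor kinase, up by 5.53 points. Homologous recombination and Fanconi genes had 5 of 28 up, with CHEK1, a checkpoint kinase, up by 9.71 points and lost without either A549 replicate. Cytosolic ribosomal proteins had 2 of 20 up, with RPL13 up by 6.90 points and a list median of 2.44. None of these 3 had a gene that fell, and relative to the median shift 0 of each were higher and 0, 1 and 1 lower. Of 8 measured ovarian genes 2 rose, with CD24, a surface glycoprotein, at 59.5% and 63.2% in CAOV3 against 47.7% and 46.9% in A549. Of 7 lung genes 2 rose and CAV1, the caveolae protein, fell, with 37.8% and 36.5% in CAOV3 against 44.5% and 44.9% in A549 (adjusted p = 2.11e-08, quasi-binomial test). Relative to the median shift CD24 was higher and CAV1 lower, and no other gene of these 2 lists passed. Lists of fibroblast and blood genes had 2 measured members each and no call. In each list with 5 or more measured genes the member nearest 0 failed the test, with differences between -0.63 points (ACIN1, of the exon junction complex) and 1.94 points (DDR1, a collagen receptor). Among them were ZCCHC4, a ribosomal RNA methyltransferase, at 0.29 points, the reader FXR2 at -0.21, PMAIP1, a BCL2 family member, at 0.094, and CCNE1, a cyclin, at -0.26.

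A separate set of sites lay at the first base of a first exon. There an adenosine next to the cap can carry m6Am, a mark written by PCIF1 and also read as A. Of the 78 such sites in 78 genes, 61 follow a C and 15 a T in the genome. Their mean was 35% and 35.1% in CAOV3, against 30.8% and 29.9% in A549, a difference of 4.68 points without overlap (exact p = 0.333). In CAOV3, the 71 with coverage under STM3675 averaged 33.4% with STM3675 and 35.8% with DMSO. Of the 78, 7 were called higher (8.97%, beside 1.76% of all sites) and 1 lower (1.28%, beside 0.132%). The 7 include the site of MT1X, which passed the table's limits in no other line, so its call is a description. The windows below show the 7 of these 8 sites with a sequence in the RefSeq table (GRCh38.p14), 10 nt to each side on the gene's strand, with the measured A as the capital.
MT1X: tctgggctccAccacgctttt
MT2A: gctgcactccAccacgcctcc
DBI: ggcgcttgccAgtgcaatctg
STMN1: gttggtgctcAgagtgtggtc
UCHL1: cggctccgctAgctgtttttc
S100A6: gacacagcccAtcccctcgac
ID1: ccgcactctcAttccacgttc
The windows are chr16:56682460-56682480 and chr16:56608574-56608594 for the metallothioneins MT1X and MT2A (plus strand), chr2:119366967-119366987 for DBI (plus), chr1:25906409-25906429 for STMN1 (minus), chr4:41256918-41256938 for UCHL1 (plus), chr1:153535981-153536001 for S100A6 (minus) and chr20:31605279-31605299 for ID1 (plus).

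In the MT1X window the first base stood at 53.7% and 56.7% in CAOV3, against 8.11% and 14.3% in A549, and it reached the table's 25% only in CAOV3, so this is a description. In that of MT2A it stood at 56.2% and 58.2%, against 23.4% and 25.0%. The metallothioneins, which bind metals, are a family of genes with similar sequence. Reads may have been split between members, which was not tested, so both values are uncertain. UCHL1, a deubiquitinase, had 70.7% and 74.5% in CAOV3 against 52.0% and 54.3% in A549, and S100A6, a calcium-binding protein, 33.6% and 37.0% against 24.2% and 25.0%. DBI, an acyl-CoA binding protein, STMN1, a microtubule destabiliser, and LGALS1, a galectin, were higher by 22.5, 21.1 and 14.2 points. ID1 was the lower one, with 37.4% and 41.5% in CAOV3 against 47.7% and 48.8% in A549. No library overlapped at these 8 sites, but each call was lost with any 1 library left out (adjusted p up to 0.709, for STMN1, quasi-binomial test). PCIF1 itself had 643 and 654 reads in CAOV3, against 1565 and 1426 in A549.

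The identity of the lines was read from the A and G reads summed over the listed sites of a gene, tested with edgeR. This is read coverage at listed adenosines and no measure of whole transcripts, and in bulk samples fewer cells of a type and less RNA per cell cannot be told apart. Of 13098 genes, 5141 were higher in CAOV3 (39.3%) and 5063 lower (38.7%). The ovarian markers PAX8 (1489 and 1517 reads in CAOV3, against 52 and 80 in A549), MSLN (4752 and 5058, against 34 and 33), FOLR1 (457 and 441, against 3 and 1) and WFDC2 (2598 and 4069, against 0 and 3) were higher in CAOV3. The Mullerian factor WT1 was lower, with 1 and 0 reads in CAOV3 and 200 and 188 in A549, as were LHX1 (1 and 1, against 255 and 181), KRT7, CD24 and CDH6. SOX17 had 72 and 67 reads against 35 and 46, a call lost without A549 replicate 1 (adjusted p = 0.066, edgeR), and CDH6 16 and 17 against 52 and 35, lost without A549 replicate 1 (0.165) or CAOV3 replicate 1 (0.0541, edgeR).

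FOXA2, a lung and liver factor, had 7 and 1 reads in CAOV3 and 2706 and 2339 in A549, but NKX2-1, which defines lung epithelium, had 4 and 3 reads in CAOV3 and 2 and 3 in A549. The defining factor of lung epithelium was thus near 0 in A549 as well. The NRF2 targets AKR1B10 (28 and 31 reads in CAOV3, against 13683 and 13549 in A549) and AKR1C1, which shares sequence with its family (206 and 224, against 12327 and 12199), were lower in CAOV3, as was VIM, the mesenchymal filament (200 and 266, against 18590 and 15372). Of 30 NRF2 targets, 2 were higher and 23 lower by coverage, with a median log2 fold change of -1.70 against 0.0073 over all genes. Of the 22 tested ovarian genes 17 were higher and 5 lower, of 11 lung genes 4 and 6, and of 24 mesenchymal genes 9 and 14. The lung marker SLC34A2 had 9 and 7 reads in CAOV3 and 2 and 0 in A549 and was not tested.

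Markers of fibroblasts and blood cells were also read. The fibroblast list, 7 of 11 listed, summed to 101 and 84.7 CPM (reads scaled to library size) in CAOV3 and to 39.6 and 42.4 CPM in A549, with COL1A1 at 97.0 and 81.2 in CAOV3 and 21.2 and 19.6 in A549 and with LUM and PDGFRB at 0 to 2 reads per library. The blood list, 5 of 11 listed, summed to 155 and 183 CPM in CAOV3 and to 48.9 and 53.4 CPM in A549, with CD14 at 612 and 690 reads in CAOV3 and 269 and 293 in A549. Of the 4 tested genes of each list, 2 fibroblast and 3 blood genes were higher in CAOV3 and 2 and 1 lower. PTPRC, HBB, COL3A1 and DCN were not analysed here. The part of these genes in the methylation differences was not tested.

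**Figure D5:**
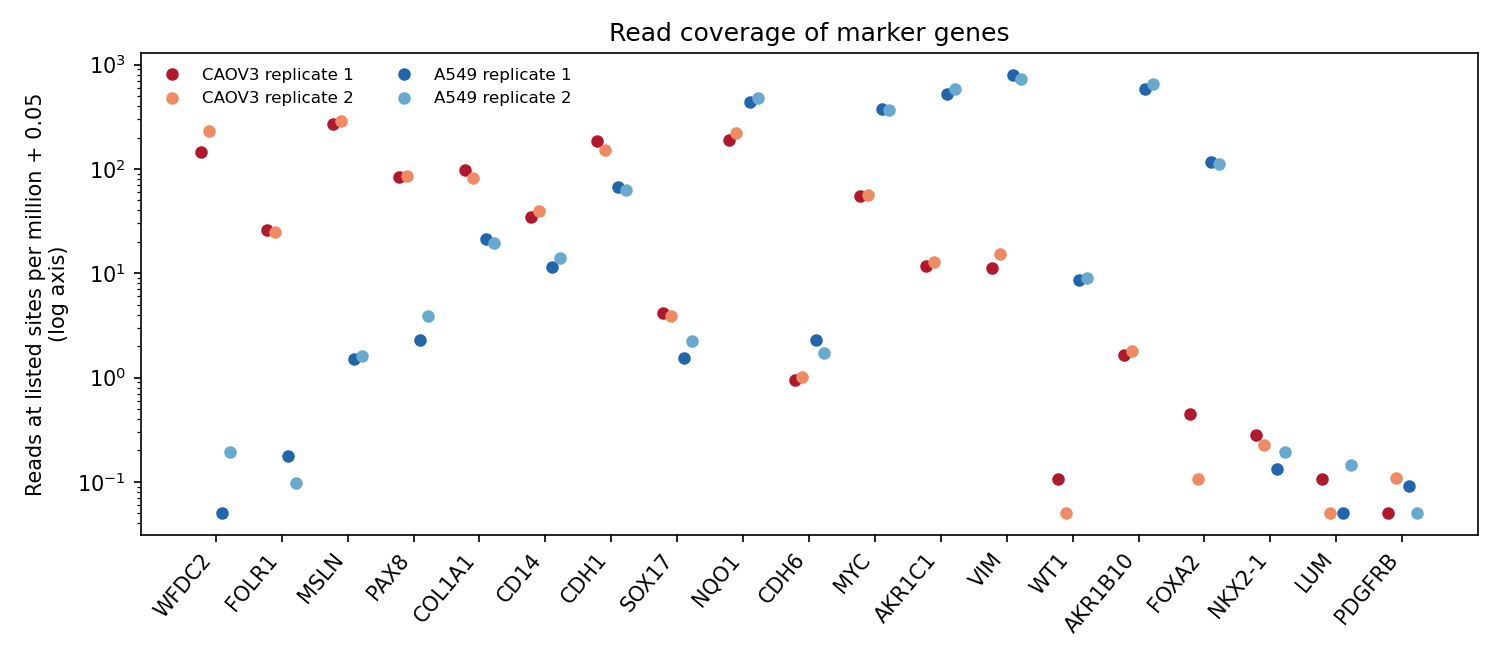
Reads at listed sites as CPM plus 0.05, on a log axis, for marker genes, NQO1 and MYC, with 1 point for each library of CAOV3 and A549. MSLN, PAX8 and WFDC2 lie far higher in CAOV3, FOXA2, AKR1B10 and VIM far higher in A549.

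Several genes were read in 1 line alone. UGT3A2 (990 and 1422 reads), CDKN2A (926 and 1161), ENPP5 (839 and 950), ACKR2 (844 and 787) and FXYD3 (647 and 923) had reads in both CAOV3 libraries and 0 in both A549 libraries. GABRA5, TRIML2, HNF4A, DRD1 and P3H2 had 0 reads in both CAOV3 libraries, and in A549 they had 1934 and 1622, 1153 and 1354, 1190 and 1125, 779 and 787, and 760 and 723 reads. A count of 0 allows up to 3 reads. CDKN2A encodes the p16 and ARF inhibitors and HNF4A is a hepatocyte nuclear factor.

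The coverage of the m6A machinery also differed between the lines. METTL3 had fewer reads in CAOV3, 485 and 537 against 1078 and 1135 in A549, a log2 fold change of -0.79 (adjusted p = 6.26e-06, edgeR). METTL14 (1348 and 1343 reads, against 1622 and 1300) and VIRMA (4595 and 4101, against 6841 and 5321) did not pass, WTAP was higher by 0.81 on the log2 scale, and the writer list counted 2 higher and 5 lower of 12. Both demethylases were lower, FTO with 275 and 349 reads against 1658 and 1325 and ALKBH5 with a log2 fold change of -0.81. Of the readers, IGF2BP1 (11 and 0 reads, against 1600 and 1475) and IGF2BP3 (57 and 63, against 2152 and 1840) were lower in CAOV3, while YTHDF1 and YTHDF3 were higher by 0.67 and 0.73. The part of these coverage differences in the methylation differences was not tested.

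Across genes, methylation differences were nearly unrelated to coverage differences, with r = -0.043 over 9448 genes that share the 4 libraries. The median difference was 4.80 points in the 245 genes whose coverage was lower in CAOV3 by over 2 on the log2 scale, and 2.82 points in the 275 genes higher by 2 or more. The ovarian factor PAX8 had 1 tested DRACH site with 17.1% and 16.5% in CAOV3 and 5.00% and 27.3% in A549.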

How the data were processed

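Cells were lysed in Trizol and polyadenylated RNA went through GLORI and a small RNA library kit, per the labels' protocols. The submitters' processing notes name cutadapt, STAR and the build GRCh38, with other steps not given in the sources used here. For each site and library the deposited table holds the count of A or G reads and the fraction that is A. Fraction times count was whole within 1e-06, so A and G counts were recovered. Of the per-sample columns, 8 were not used. Sites listed under more than 1 gene (469) were tested once.

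Logistic models with quasi-binomial dispersion, moderated with limma 3.58.1 (robust, floor of 1), were fitted in R 4.3.3 over all tested sites or genes. The robust option was chosen after a test on simulated data, where 54% of sites raised in odds 4-fold and 45% of those lowered were recovered over 163387 sites, and 5 unchanged sites were called. For sites the moderation gave nearly 1 common dispersion, so calls are too lenient where a site's own spread is wide. Coverage was tested with edgeR 4.0.16 on counts. DESeq2 1.42.0 was an alternative. Reads may not be independent molecules, so limits cover counting error only. Replicate numbers were not taken as pairs, since the labels do not say that a number marks a shared batch. The replicate differences of the lines did not correlate across sites (r = -0.0019). Counting noise is large at single sites, and a shift common to all sites would not show in r. This value therefore cannot exclude pairing.

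The members and gene lists were chosen with earlier results of these data known. Sites named are the 10 largest called differences each way, 1 per gene. They had a gene name, 50 or more reads in each library, no overlap and 5% or more in the lower line. Also named are called DRACH sites under 5% in the lower line and at 40% or more in the higher, and 4 sites covered in no other line. Genes named are the 5 largest called each way with 3 or more sites, the extremes and the member nearest 0 of each list, and a fixed set. The genes with the most called sites, those called both ways, the first-base sites and a pair of sites without a gene were added after their values were seen.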

Additional observations from a re-analysis of the deposited data

How the results depend on the processing

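The direction of the mean DRACH difference and of the corrected one held under every alternative run, and without any 1 library the mean difference lay between 3.93 and 5.06 points. The counts of called sites depended on how the spread was estimated. With limma on arcsine levels, 0 sites, 0 DRACH sites and 0 genes were called either way. With the replicate block, 8 sites were higher and 4 lower (8 and 3 among DRACH sites), while for genes it gave 2405 and 76. The labels do not say whether a replicate number pairs libraries. On simulated data neither limma nor the block recovered any changed site. For genes limma recovered 0% at 2-fold odds, and 77% of those raised and 76% of those lowered at 4-fold. The simulated spread was the same at all sites, as the main model nearly assumes, so it cannot tell which count of sites is nearer the truth. Without any 1 library, 109 to 259 sites were higher and 21 to 41 lower, 101 to 236 and 14 to 31 among DRACH sites, and for genes 1233 to 3170 and 30 to 204. With 1 common dispersion, an alternative chosen after seeing the data, these ranges were 1241 to 2666 and 120 to 216 for sites, 1141 to 2246 and 82 to 157 for DRACH sites, and 1308 to 3170 and 33 to 204 for genes. Within them, leaving out A549 replicate 2 gave 1380 and 139 sites, 1259 and 94 DRACH sites and 1331 higher genes, and leaving out A549 replicate 1 gave 34 lower genes. A minimum of 50 reads gave 5266 and 353 sites (4756 and 255 DRACH), and sites that passed in another line gave 4757 and 347 (4328 and 240 DRACH). Fewer sites were tested in both, and the mean dispersion was also lower, at 1.56 and 1.41 against 1.82 in the main fit. Main calls made up 49.8% and 52.4% of the calls in these fits. Against the median shift of genes, 501 were higher and 390 lower, also added after seeing the data. Of the 3096 called sites, 3056 kept their call and direction with the block and 1 common dispersion.

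Under limma PGD was higher by 1.53 points (adjusted p = 0.658). Relative to the median shift, in log odds, ID2 was at -0.19 (0.0254), TGM2 at -0.19 (0.00783), EGFR at -0.0071 (0.925) and YTHDF3 at -0.041 (0.669). The shift of 0.19 was subtracted from each gene's log odds difference, so a rise smaller than it reads as negative. Limma took the mean over a gene's sites, while the main test summed their reads. The cause of the PGD change was not tested. Depth limits single sites: at 20 reads a level has a wide counting error.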
